A study of Mus musculus with 8 samples.

Results

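The TRIM family was described here across 8 Illumina bead arrays of mouse embryonic fibroblasts (MEFs), connective tissue cells grown out of embryos. Members are the rows of the non-normalized table whose gene name is Trim followed by digits and an optional letter. That rule used no measured value and took 74 probes of 50 genes, out of 25697 probes and 18138 gene names. Of these genes 37 had 1 probe and 13 had more, and probes of 1 gene are numbered below in the order of the table. Gene names matched current RefSeq symbols in 49 cases, and Trim30 matched as an older name of Trim30a.

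The groups were knockout MEFs with c-di-GMP, knockout MEFs with DMSO, wild-type MEFs with c-di-GMP and wild-type MEFs with DMSO, with 2 arrays each. The sample titles write the knockout as TICAM and the series title as TICAM1, the gene of the Toll-like receptor adaptor TRIF. Cells received c-di-GMP, a bacterial second messenger sensed through STING, at 8 µg/ml in lipofectamine for 30 min, or DMSO in equal amount, and RNA was taken 4 h after transfection from cultures in 10% serum. The labels name no separate cultures or animals for the replicates and no allele, so p-values measure array-to-array spread only, and that spread may be technical.

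TRIM proteins share a tripartite motif of a RING domain, 1 or more B-boxes and a coiled coil, and most act as ubiquitin ligases through the RING. The carboxy-terminal domain sets members apart: many antiviral members carry a SPRY domain, the TIF1 members bind chromatin, and another branch carries NHL repeats. Several members are induced by interferon and attach ubiquitin to sensors, adaptors or transcription factors of the interferon pathway, either raising or lowering its output.

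On 7 arrays between 11254 and 11657 probes were detected, which means a detection p under 0.05 against background. The second knockout DMSO array stood apart, with 6468 probes detected and a correlation of 0.835 with its replicate in raw log2 signal across probes, against 0.968 to 0.995 in the other groups. Counts of Trim probes are therefore given with all 8 arrays and again without that array. Both Ticam1 probes read near background (1 was detected on 3 of the 8 arrays, at 5.01 to 5.63 on the log2 scale over all arrays, and the other on 0). Of those 3 detections 2 were on knockout arrays, which also held the highest value, and Ticam1 at these levels checked no label. Fibroblast markers bore out the cell type: 7 to 9 of 9 marker genes were detected on every array. Median scaling in place of quantile normalization moved the median of all tested probes to 0.90 in the knockout response and to -0.22 in the wild-type response, against 0.15 and -0.05. Differences below are log2 differences of normalized intensity ± SE from limma, with Benjamini-Hochberg adjustment over all 13026 tested probes (12915 without the weak array).

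Promoter letters are shown for Trim21, Trim26 and Trim30, which differed between the genotypes and hold a motif of the interferon response in these windows, and for Trim30d, a close copy of Trim30 outside the member rule. The motif searched was GAAA, any 2 bases and GAAA again, on both strands, a core of the interferon-stimulated response element, in RefSeq windows of GRCm38.p6 that run from 250 bases before to 50 bases after a transcript start. Letters are given on the strand of the gene, and capitals mark the motif or overlapping motifs. In Trim21 it read in this direction and in the other stretches as its reverse complement, TTTC, any 2 bases and TTTC. The Trim21 stretch begins at base 6 after the start, and those of Trim26, Trim30a and Trim30d begin at -190, -70 and -75.
Trim21, chr7:102565448-102565477, minus strand: tctgagagGAAACTGAAAGTGAAAtttgga
Trim26, chr17:36836956-36837015, plus strand: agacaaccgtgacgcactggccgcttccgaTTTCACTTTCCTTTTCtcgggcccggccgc
Trim30a, chr7:104465204-104465263, minus strand: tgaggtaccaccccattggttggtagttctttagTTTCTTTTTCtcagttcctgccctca
Trim30d, chr7:104507865-104507924, minus strand: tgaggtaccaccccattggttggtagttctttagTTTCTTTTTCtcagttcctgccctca
In Trim21 and Trim26 a pair of motifs overlapped, and the stretches of Trim30a and Trim30d were the same letter for letter. The motif stood in a window of 4 of the 38 Trim genes with one (10.53%), namely Trim2, Trim21, Trim26 and Trim30a, and in 1079 of all 27025 genes (3.993%). Windows of Trim25 and Trim56 did not hold these letters. Outside the member rule, Trim12c held the motif as well as Trim30d, and its probe was detected on 0 arrays.

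Knockout MEFs expressed 25 Trim probes (18 genes) and wild-type MEFs 28 (20 genes), where expressed means detected on at least 3 of the 4 arrays of a genotype. These are 33.78% of the 74 probes in knockout and 37.84% in wild-type cells, against 41.02% and 41.26% of all probes. Both genotypes expressed 23 probes. Knockout cells alone passed for Trim37, mutated in human mulibrey nanism, and for Trim65, a ligase for the RNA sensor MDA5. Trim65 lay near background in both genotypes, at 4.72 to 5.71 on the knockout and 5.09 to 5.86 on the wild-type arrays. It was detected on 3 knockout and 2 wild-type arrays, so the threshold alone set it apart. Wild-type cells alone passed for probes 2 and 3 of Trim21, Trim25, Trim30 and Trim68. The 2 knockout-only probes are 2.703% and the 5 wild-type-only probes 6.757% of the Trim probes, beside 3.732% and 3.973% of all probes. Knockout MEFs given c-di-GMP had 28 and 26 Trim probes detected per array and those given DMSO had 31 and 14. Wild-type MEFs given c-di-GMP had 33 and 32, and those given DMSO had 32 and 29. The count of 14 belongs to the weak array. The map of tested Trim probes shows the same split.

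**Figure D1:**
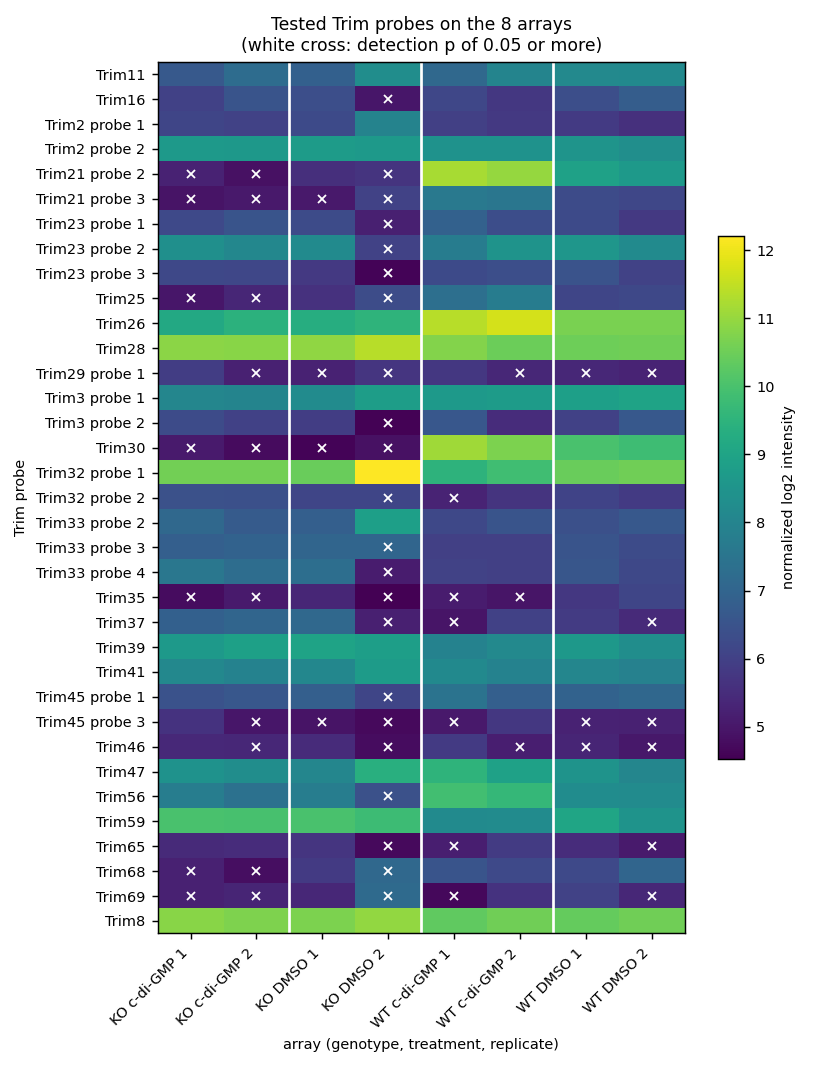
Normalized log2 intensity (colour) of the 35 tested Trim probes (rows) on the 8 arrays (columns), with a white cross where the detection p was 0.05 or more. Trim30 and probe 3 of Trim21 carry crosses on all 4 knockout arrays and on 0 of the wild-type arrays, and the second knockout DMSO array holds many crosses of its own.

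The members with the highest mean log2 intensity over the arrays were Trim28, Trim8, probe 1 of Trim32, Trim26 and Trim59, although signals of different probes also reflect how each probe binds. At the other end, 33 probes were detected on no array, which covers every probe of 19 genes, and 6 probes were detected on 1 array. Among those 19 genes were the muscle members Trim54 and Trim63 (MuRF proteins of the sarcomere) and Trim72 (a membrane repair protein), at 4.54 to 5.05 on the log2 scale. The same held for Trim6, Trim13, Trim14 and Trim38, members with known roles in innate signalling, at 4.51 to 6.08, where both highest values (Trim13 at 6.08 and Trim14 at 5.75) came from the weak array. Trim66, a TIF1 member, lay at 4.58 to 5.13. The test took probes detected on at least 2 of the 8 arrays: 35 Trim probes of 26 genes passed, and 24 genes had no probe tested.

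Trim21 rose with c-di-GMP in wild-type MEFs. It encodes the cytosolic antibody receptor that also attaches ubiquitin to IRF transcription factors. Probe 2 of Trim21 (ILMN_3139158) read 11.21 and 11.00 log2 units with c-di-GMP, against 8.93 and 8.67 with DMSO. Both c-di-GMP arrays lay above both DMSO arrays, and the difference of 2.30 ± 0.28 (4.94-fold, limma adjusted p = 0.028) passed. It was the 1 Trim probe called higher among 35, with 0 called lower in limma (7 of the 35 had an unadjusted p under 0.05 in either direction), beside 0.53% of all probes called higher and 0.00768% called lower. Without the weak array the difference was 2.32 ± 0.22 (adjusted p = 0.00288). The call was lost with median scaling, with the replicate number as a block, and without any 1 of the wild-type arrays or of the knockout c-di-GMP arrays, while 6 Trim probes were higher without the first knockout DMSO array, beside 3.58% of all probes.

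Without the weak array 4 Trim probes rose and 1 fell in wild-type cells, beside 3.21% and 1.19% of all probes. The 3 further rises were in probe 3 of Trim21, Trim56 and Trim25. Probe 3 of Trim21 (ILMN_3061663) read 7.62 and 7.55 with c-di-GMP, against 6.28 and 6.17 with DMSO on the 8-array scale. Trim56 (ILMN_2441921), a ligase reported to modify STING and cGAS, read 9.87 and 9.65 with c-di-GMP, against 8.26 and 8.22 with DMSO. Trim25 (ILMN_2927093), the ligase that ubiquitinates the RNA sensor RIG-I, read 7.33 and 7.74 with c-di-GMP, against 6.13 and 6.19 with DMSO. In none of these 3 did the c-di-GMP and DMSO arrays overlap. The differences without the weak array were 1.41 ± 0.17 for probe 3 of Trim21, 1.52 ± 0.20 for Trim56 and 1.43 ± 0.22 for Trim25, with adjusted p between 0.00659 and 0.018. With all 8 arrays they were 1.35 ± 0.36, 1.51 ± 0.46 and 1.37 ± 0.34, and adjusted p lay between 0.287 and 0.452.

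The fall was in Trim35, which read 5.12 and 4.95 with c-di-GMP, without detection, and 5.78 and 6.13 with DMSO. Taken against the lowest detected signal, a bound without sampling error, it was lower by at least 1.43-fold. Its difference was -1.01 ± 0.21 without the weak array (adjusted p = 0.0495) and -0.93 ± 0.35 with all arrays (0.734). This probe lay close to background throughout.

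Other antiviral members differed by less and passed in neither fit. Trim30 (ILMN_1229630), which in mouse restrains NF-κB signalling through TAB2 and TAB3, read 11.12 and 10.69 in wild-type MEFs given c-di-GMP and 10.02 and 9.83 in those given DMSO, a difference of 0.98 ± 0.29 (adjusted p = 0.434, and 0.0587 without the weak array). Trim26 (ILMN_1240074), a ligase reported to act on nuclear IRF3, read 11.38 and 11.70 with c-di-GMP, against 10.65 and 10.66 with DMSO, a difference of 0.89 ± 0.27 (0.473, and 0.0587 without the weak array). For both, the c-di-GMP arrays lay above the DMSO arrays. Trim47, which is not among the innate signalling genes listed below, differed by 0.94 ± 0.47 (0.975). Without the weak array its difference was 0.95 ± 0.26. Probe 1 of Trim32, an NHL member reported to ubiquitinate STING, differed by -0.84 ± 0.54 with all arrays and by -0.84 ± 0.19 without the weak array (adjusted p = 0.0563).

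The 10 tested genes of the innate signalling list (14 probes) had a median wild-type response of 0.41, beside 0.02 for the 35 Trim probes and -0.05 for all probes. In that list 1 probe was called higher with all arrays, beside 0.53% of all probes, and 4 without the weak array, beside 3.21%. In both fits 0 were called lower, beside 0.00768% and 1.19%. That list was chosen with earlier results of these data known. The 4 TIF1 probes had responses between -0.42 and 0.09. Among them Trim28, the co-repressor of KRAB zinc finger proteins, read 10.78 and 10.47 with c-di-GMP, against 10.51 and 10.56 with DMSO. Its difference of 0.09 ± 0.28 had a 95% interval of -0.57 to 0.76. Trim8, a ligase of the TNF and interleukin-1 pathway, differed by -0.03 ± 0.26. The NHL list (6 probes of Trim2, Trim3 and Trim32) ranged from -0.84 to 0.19, and none of its probes passed in either fit.

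In knockout cells no Trim probe was called with c-di-GMP in either limma fit, beside 0% of all probes. At an unadjusted p under 0.05 there was 1 Trim probe with all arrays, Trim68, and 0 without the weak array. Dropping the first knockout DMSO array instead, which leaves the weak array to stand for its group, gave 8 higher and 11 lower, beside 36.6% and 21.5% of all probes. Trim68 read 5.22 and 4.82 with c-di-GMP, against 5.81 and 7.11 with DMSO, and the value of 7.11 came from the weak array, where it was not detected. It was not detected with c-di-GMP, so its difference has only a bound, at least 1.37-fold lower against the first DMSO array, which detected it, and it passed in neither fit.

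The members with the highest wild-type responses did not pass here, and several were dim. Knockout MEFs given c-di-GMP read 5.25 and 4.86 for probe 2 of Trim21 and those given DMSO 5.57 and 5.67, and it was detected on the first DMSO array alone. Trim25 read 5.00 and 5.36 with c-di-GMP, against 5.60 and 6.31 with DMSO, and was likewise detected on the first DMSO array alone. Trim56 read 7.79 and 7.39 with c-di-GMP, against 7.79 and 6.42 with DMSO, where 6.42 is the weak array and was not detected. Its knockout response was 0.48 ± 0.46, and -0.21 ± 0.25 without the weak array. The other large differences with all arrays were in probe 4 of Trim33 (1.21), probes 2 and 3 of Trim23 (1.09 and 0.97), probe 1 of Trim2 (-1.02) and probe 2 of Trim33 (-0.93). They lay between -0.17 and 0.41 without the weak array.

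The difference between the responses was tested directly as the knockout response minus the wild-type response, in which all 4 groups take part. With all arrays no Trim probe passed in limma, beside 0% of all probes higher and 0.00768% lower, and 4 Trim probes had an unadjusted p under 0.05. Probe 2 of Trim21 differed by -2.86 ± 0.39 (adjusted p = 0.143), Trim25 by -2.15 ± 0.48 (0.426), probe 3 of Trim21 by -1.90 ± 0.51 (0.668) and Trim26 by -0.99 ± 0.39 (0.711). Probe 4 of Trim33 (1.59 ± 0.91) and probe 2 of Trim23 (1.37 ± 0.94) were the largest in the other direction. Leaving out the first knockout DMSO array gave 10 lower and 7 higher, beside 17.5% and 31.5% of all probes. Without the weak array probe 2 of Trim21 passed at -2.88 ± 0.34 (adjusted p = 0.0299), the 1 Trim probe beside 0.457% of all probes called lower and 0.0155% higher. Its knockout values lay at or near background. Trim25, probe 3 of Trim21 and Trim56 had adjusted p between 0.0819 and 0.09 in that fit.

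**Figure D2:**
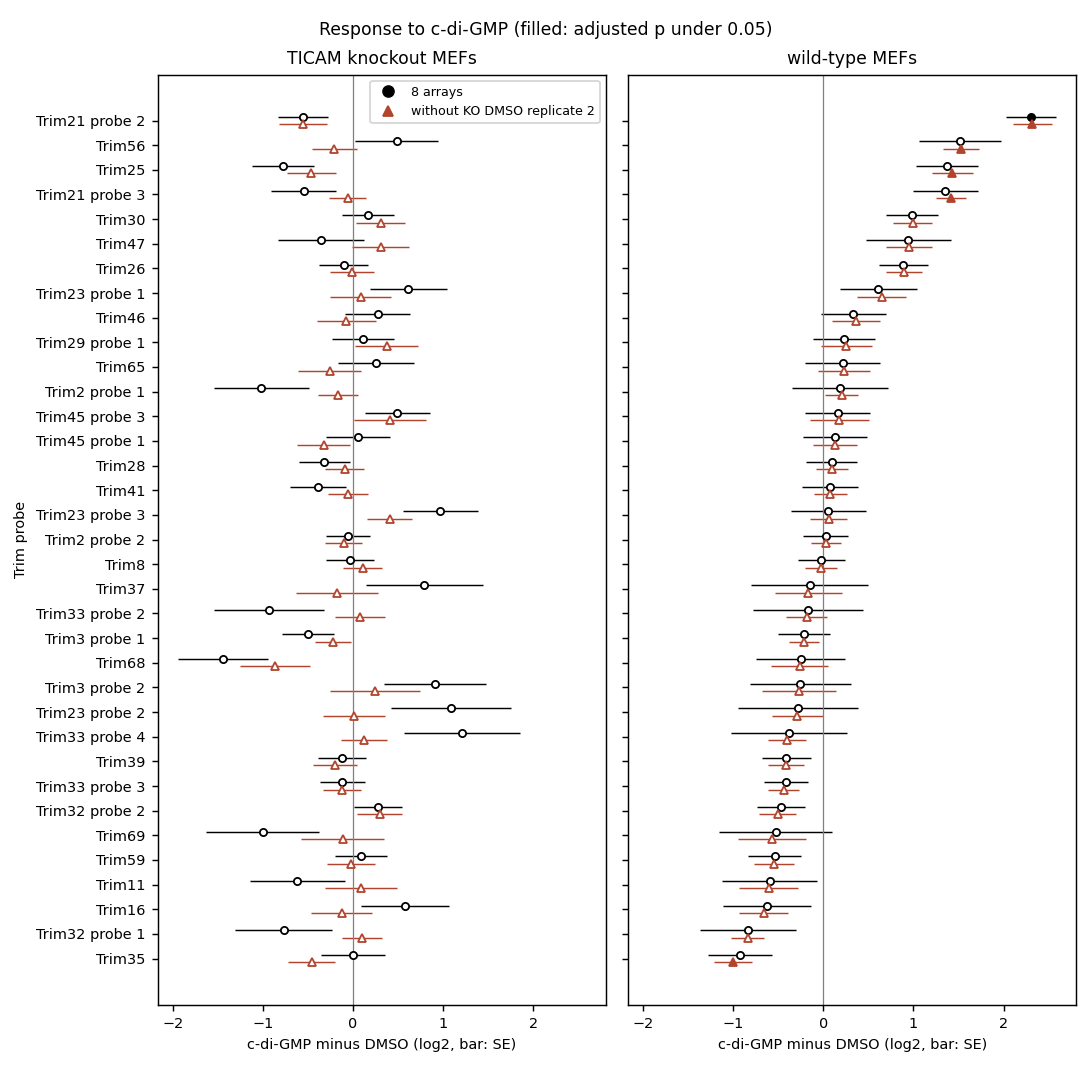
Log2 difference of c-di-GMP minus DMSO for the 35 tested Trim probes in knockout (left) and wild-type MEFs (right), with SE bars, for 8 arrays (circles) and without the second knockout DMSO array (triangles). Filled symbols have an adjusted p under 0.05 and stand in the wild-type panel alone, at probe 2 of Trim21 in both fits and at Trim56, Trim25, probe 3 of Trim21 and Trim35 in the fit without the weak array.

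With c-di-GMP, knockout MEFs had less Trim21, Trim30, Trim25, Trim26 and Trim56 than wild-type MEFs and more Trim59. These are 6 Trim probes called lower and 1 called higher of 35, beside 7.15% and 4.72% of all probes. Median scaling gave 2 lower and 0 higher, beside 1.17% and 0.138% of all probes. Leaving out the first knockout c-di-GMP array gave 2 lower, beside 2.48%, and leaving out the second gave 3 lower, beside 2.44%. Both left 0 higher, beside 0.745% and 0.711%. Without the weak array, which is in neither group, 9 were lower and 7 higher, beside 19% and 23.5% of all probes. The genotype comparisons share their arrays with the response comparisons, so their values are not independent of those above.

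Trim21 and Trim30 differed most. Probe 2 of Trim21 read 5.25 and 4.86 in knockout cells, without detection, against 11.21 and 11.00 in wild-type cells, a deficit of at least 52.2-fold (fitted difference -6.04 ± 0.28, adjusted p = 5.32e-05). Trim30 read 5.06 and 4.75, against 11.12 and 10.69 in wild-type cells. It was likewise not detected on the knockout arrays and lay at least 45.6-fold lower there (fitted difference -6.00 ± 0.29, adjusted p = 6.65e-05). Probe 3 of Trim21 gave a bound of at least 4.54-fold (adjusted p = 0.0054), and Trim25 a bound of at least 4.39-fold (0.00636). Both calls were lost with median scaling and without either knockout c-di-GMP array, and each also without 1 of the wild-type arrays given c-di-GMP (the first for probe 3 of Trim21, the second for Trim25). Both tested probes of Trim21 were lower, with fitted values that differed in size (-6.04 and -2.59). Probe 1 of Trim21 was detected on 1 array of 8 and was not tested.

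Trim26 and Trim56 were detected in both genotypes. Trim26 read 9.16 and 9.46 in c-di-GMP knockout cells, against 11.38 and 11.70 in wild-type cells, a difference of -2.23 ± 0.27 (adjusted p = 0.00305). Trim56 read 7.79 and 7.39, against 9.87 and 9.65 in wild-type cells, a difference of -2.17 ± 0.46 (adjusted p = 0.0257). Trim59 (ILMN_2993661), a ligase with a membrane-spanning segment, ran the other way. It read 10.00 and 9.97 in knockout cells, against 8.21 and 8.24 in wild-type cells, a difference of 1.77 ± 0.29 (adjusted p = 0.0104). In none of these 3 did the genotypes overlap. Without the weak array the differences were -2.25 ± 0.20 for Trim26, -2.19 ± 0.20 for Trim56 and 1.78 ± 0.22 for Trim59, and all passed. With 8 arrays as the start, the Trim56 call was lost with median scaling, with no detection filter and without any 1 array other than a knockout DMSO array (adjusted p up to 0.551). The Trim59 call was lost with median scaling and without any 1 c-di-GMP array (up to 0.426), and the Trim26 call with median scaling and without the first knockout c-di-GMP array (up to 0.529).

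**Figure D3:**
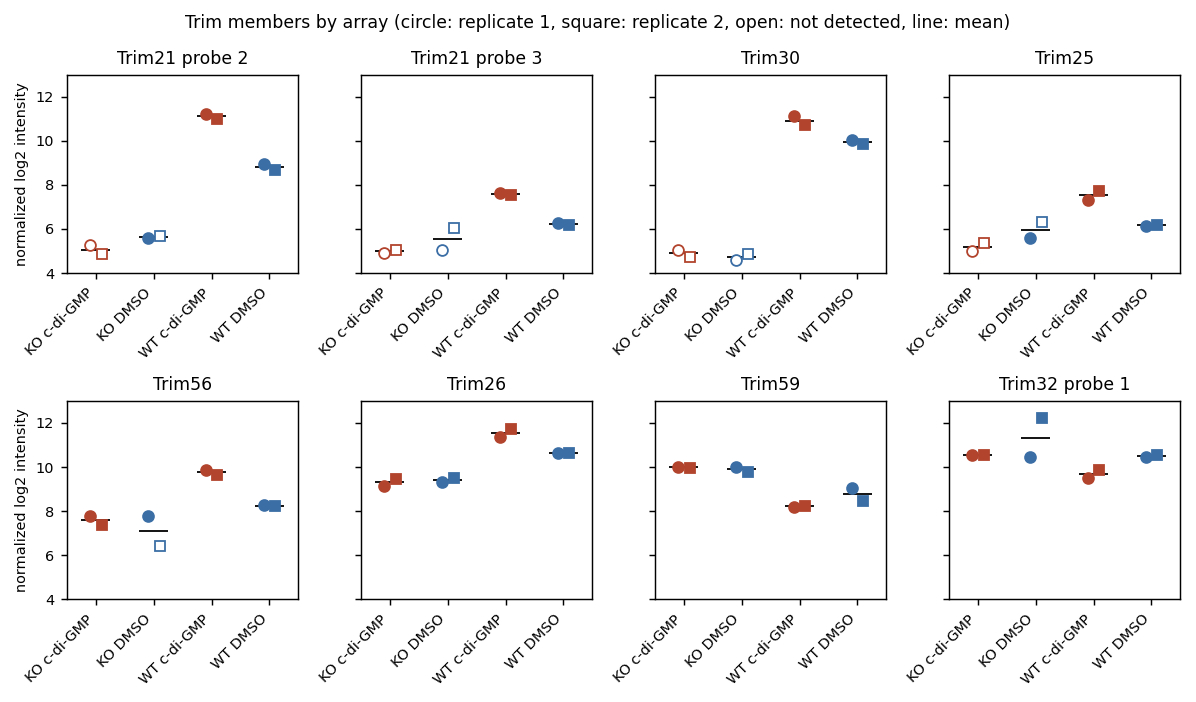
Normalized log2 intensity of 8 Trim probes on each array, in the order knockout c-di-GMP, knockout DMSO, wild-type c-di-GMP and wild-type DMSO (circle replicate 1, square replicate 2, open symbol not detected, line group mean). Probe 2 of Trim21 and Trim30 sit at 4.61 to 5.67 on the knockout arrays and at 8.67 to 11.21 on the wild-type arrays, while Trim59 is higher on the knockout arrays.

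Under DMSO, 3 Trim probes were lower in knockout cells and 0 higher in limma (9 had an unadjusted p under 0.05 in either direction), beside 6.43% and 4.17% of all probes. Trim30 read 4.61 and 4.87 in knockout cells, against 10.02 and 9.83 in wild-type cells. It was not detected in knockout cells, where it lay at least 11.2-fold lower (adjusted p = 0.00018), or at least 26.3-fold lower without the weak array, whose detection limit is high. For probe 2 of Trim21 the values were 5.57 (detected) and 5.67 (not detected), against 8.93 and 8.67 in wild-type cells, a difference of -3.18 ± 0.28 (adjusted p = 0.00114). Trim26 read 9.32 and 9.51, against 10.65 and 10.66 in wild-type cells, a difference of -1.24 ± 0.27 (adjusted p = 0.0341). The Trim26 call was lost with median scaling, array weights and the replicate block, and without any 1 array other than a knockout DMSO array, with adjusted p up to 0.479. The call of probe 2 of Trim21 was lost with median scaling (0.0528). Without the first knockout DMSO array 11 Trim probes were lower and 9 higher, beside 38.5% and 25.4% of all probes. In all 3 named here the genotypes differed without c-di-GMP, and their arrays did not overlap. The next largest differences did not pass: 1.41 ± 0.53 for probe 1 of Trim2, 1.33 ± 0.61 for probe 2 of Trim33 and -1.26 ± 0.67 for probe 2 of Trim23. They were 0.58 ± 0.23, 0.34 ± 0.28 and -0.18 ± 0.34 without the weak array.

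Trim56 and Trim25 differed by less under DMSO, at -1.14 ± 0.46 and -0.20 ± 0.34 with all arrays and -0.46 ± 0.25 and -0.60 ± 0.27 without the weak array, and neither passed in either fit. Trim59 differed by 1.13 ± 0.29 (adjusted p = 0.0541) with all arrays and by 1.26 ± 0.27 (0.0163) without the weak array. In that fit 5 Trim probes were lower and 3 higher, beside 12.3% and 12.8% of all probes. The further calls were probe 3 of Trim21 (-1.28 ± 0.20, undetected in knockout cells and at least 1.91-fold lower) and probe 1 of Trim3 (-0.69 ± 0.20) among the lower ones, and Trim37 (1.58 ± 0.45) and probe 4 of Trim33 (0.94 ± 0.26) among the higher ones. Probe 4 of Trim33, a TIF1 member of SMAD signalling, had the opposite sign with all arrays (-0.19 ± 0.65), where it read 7.29 and 5.11 under DMSO in knockout cells and 6.58 and 6.19 in wild-type cells. The weak array supplied 5.11, without detection.

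Further Trim probes were called under c-di-GMP when the weak array was left out. The 7 higher in knockout cells were Trim59, Trim37, both tested probes of Trim32 (0.90 ± 0.19 and 0.99 ± 0.20), probes 3 and 4 of Trim33 (0.96 ± 0.17 and 1.47 ± 0.21) and Trim39 (0.75 ± 0.20), the last a ligase that binds the apoptosis protein MOAP-1. Probe 1 of Trim32 read 10.56 and 10.57 in c-di-GMP knockout cells, against 9.50 and 9.85 in wild-type cells. Probe 4 of Trim33 read 7.56 and 7.26, against 6.02 and 5.98 in wild-type cells. Both genes had arrays without overlap between the genotypes. Beside the 6 named above, the lower calls were Trim68 (-1.46 ± 0.32, undetected in knockout cells and at least 1.96-fold lower with all arrays), probe 1 of Trim3 (-0.70 ± 0.16) and Trim47 (-0.85 ± 0.26), with adjusted p between 0.0101 and 0.0357.

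**Figure D4:**
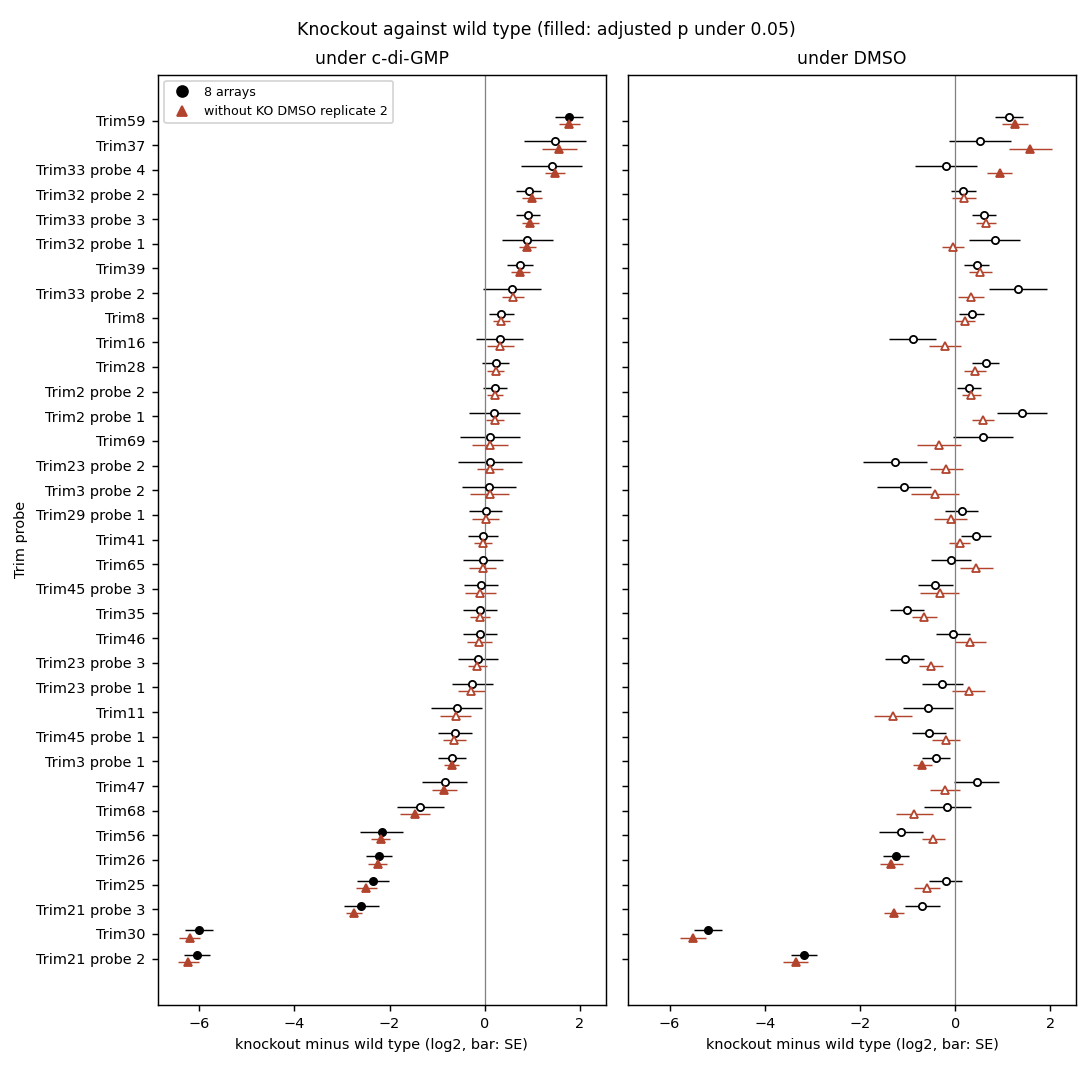
Log2 difference of knockout minus wild type for the 35 tested Trim probes under c-di-GMP (left) and DMSO (right), with SE bars, for 8 arrays (circles) and without the second knockout DMSO array (triangles). Filled symbols have an adjusted p under 0.05. Trim30 and probe 2 of Trim21 lie farthest below 0 in both panels.

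By list, the 14 tested probes of the innate signalling genes held all 6 lower calls under c-di-GMP with all arrays and all 3 under DMSO, beside 7.15% and 6.43% of all probes. They held, when the weak array was left out, 6 lower and 2 higher calls under c-di-GMP, the higher ones being both probes of Trim32, beside 19% and 23.5% of all probes, and 4 lower and 0 higher under DMSO, beside 12.3% and 12.8%. Their medians were -0.43 and -0.63, beside 0.12 and -0.13 for all probes and -0.04 and -0.16 for all tested Trim probes. The list was chosen with earlier results of these data known. Trim30 and probe 3 of Trim21 passed the detection filter through wild-type arrays alone. Probe 2 of Trim21 and Trim25 were each detected on 1 knockout array and would not have passed without wild-type arrays. The counts therefore describe the list and do not test it. Members of that list without a call in any comparison of either fit were Trim8, Trim11, Trim23 and Trim65. Trim8 read 10.85 and 10.72 in c-di-GMP knockout cells and 10.34 and 10.55 in wild-type cells, a difference of 0.34 ± 0.26 whose 95% interval was -0.28 to 0.96. Trim11 differed by -0.59 ± 0.53 under c-di-GMP and by -0.57 ± 0.53 under DMSO, the latter -1.31 ± 0.40 without the weak array. Under c-di-GMP the 3 probes of Trim23, which also carries a GTPase domain, differed by -0.27, 0.11 and -0.15, and Trim65 by -0.04 ± 0.42. Trim28 differed by 0.23 ± 0.28 under c-di-GMP and by 0.64 ± 0.28 under DMSO, and did not pass. The probes of Trim2, an NHL member that acts on neurofilaments, differed by 0.20 ± 0.53 and 0.21 ± 0.25 under c-di-GMP.

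The lower Trim21 and Trim30 in knockout cells stood beside a difference in markers of white blood cells, a cell type that MEF cultures can hold. Of 9 such marker genes, 0 to 3 were detected on the knockout arrays and 5 or 6 on the wild-type arrays, and their summed linear signal was 414 to 442 on the knockout and 2013 to 2417 on the wild-type arrays. Emr1 and Laptm5 were detected on 0 knockout and all 4 wild-type arrays, while Ptprc and Itgam were detected on none of the 8. Tyrobp was detected on 0 knockout and 3 wild-type arrays, and Cd68 on 1 and 4. Emr1, Laptm5 and Tyrobp passed the detection filter through wild-type arrays alone. Counts of lower marker probes therefore describe the markers and do not test them. Of 7 tested marker probes 4 were lower in knockout cells under c-di-GMP and 4 under DMSO, with medians of -2.47 and -2.29, beside 7.15% and 6.43% of all probes, and without the weak array 6 and 4 were lower, beside 19% and 12.3%. Fibroblast marker probes differed in both directions: of 11, 4 were lower and 2 higher under c-di-GMP, beside 7.15% and 4.72% of all probes. Under DMSO 3 were lower and 3 higher, beside 6.43% and 4.17%. Their differences ran from -2.42 to 3.03 under c-di-GMP and from -2.50 to 3.06 under DMSO. The part of these markers in the Trim differences was not tested. In these bulk samples fewer cells of a type and less RNA per cell cannot be told apart.

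Some partners of the antiviral members also differed between the genotypes. Of 18 tested probes of signalling partners, 5 were lower and 0 higher under c-di-GMP with all arrays, beside 7.15% and 4.72% of all probes, and 10 were lower and 1 higher without the weak array, beside 19% and 23.5%. Of 19 probes of ubiquitin enzymes and related genes, 5 were lower and 0 higher under c-di-GMP with all arrays, beside 7.15% and 4.72% of all probes. Their median difference was 0.02, also without the weak array, and 10 of the 19 were positive. Ddx58, Ifih1, Irf7 and both probes of Usp18 passed the detection filter through wild-type arrays alone, and probe 2 of Traf6 through knockout arrays alone. The counts of both lists therefore describe them and do not test them. Ddx58, which encodes RIG-I, the target of Trim25, read 5.09 and 5.33 in c-di-GMP knockout cells, where it was not detected, against 9.70 and 9.75 in wild-type cells, at least 20.03-fold lower (adjusted p = 0.000155). Ifih1, which encodes MDA5, was at least 15.9-fold lower (0.000307) and rose in wild-type cells by 2.59 ± 0.32 (0.029). Ube2l6, the ISG15-conjugating enzyme, differed by -3.66 ± 0.28 under c-di-GMP (adjusted p = 0.00048). Under DMSO it was not detected in knockout cells and lay at least 3.44-fold lower there (adjusted p = 0.00115). Ifnb1, the gene of interferon beta, was at least 20.15-fold lower in c-di-GMP knockout cells, and under DMSO it was not detected in either genotype. Of 17 tested probes of Ifnb1 and interferon-induced genes, 10 were called higher in the wild-type response, beside 0.53% of all probes. In knockout cells 16 were lower under c-di-GMP and 8 under DMSO, beside 7.15% and 6.43%, and 0 were higher. Ifnb1, probe 1 of Irf1 and probe 2 of Oasl1 were detected on the wild-type c-di-GMP arrays alone. Cxcl10, Rsad2, Mx1, probe 1 of Ifit3 and probes 1 and 3 of Oasl1 were detected on wild-type arrays alone. Such probes passed the detection filter only where they are high, so these counts describe the list and do not test it. The 8 probes called lower under DMSO differed between the genotypes also without c-di-GMP, and the rest of the 17 were not called there.

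Among 7 probes that carry an older name of a current Trim symbol and so fall outside the rule, AI451617, now Trim30d, was expressed in wild-type cells. Knockout MEFs given c-di-GMP read 4.60 and 4.70 and those given DMSO 4.63 and 4.77, all undetected, against 8.74 and 8.64 and 7.69 and 7.70 in wild-type MEFs of the same treatments. It was at least 9.79-fold lower in knockout cells under c-di-GMP and at least 2.38-fold lower under DMSO (adjusted p = 0.000176 and 0.000896). Its wild-type response was 1.00 ± 0.25 (adjusted p = 0.285, and 0.0203 without the weak array). Trim30 and Trim30d are close copies, and which of them each probe binds was not tested, so their values are uncertain as separate measurements. The other 6 probes, for Trim12c, Trim30b, Trim43a, Trim80 and Trim30e-ps1, were detected on at most 1 array.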

How the data were processed

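Total RNA of the 8 arrays was measured as bead signals. The authors deposited non-normalized probe intensity with a detection p-value beside each signal, per the file headers. GenomeStudio 2010.2 is named in the submitters' processing notes. They also deposited normalized intensity on a linear scale. The sources used here do not give its normalization. Detection p-values of both tables differ in 12 cells. Non-normalized signals went through limma's neqc function: normexp background correction based on detection p-values, an offset of 16, quantile normalization and log2 (limma 3.58.1, R 4.3.3). Probes detected at p under 0.05 on at least 2 of 8 arrays were tested, each probe on its own, with 1 mean per group (4 residual and 2.909 prior degrees of freedom), two-sided, threshold 0.05. Groups and replicate numbers come from the sample titles. The weak array was removed before normalization in the second fit, which leaves 1 knockout DMSO array, assumed to vary like the others. Where no array of a group detected a probe, the fold is a bound, printed as "at least": on each such array the probe was set to the lowest detected signal, or to its own where that was higher, and the mean of these was taken from the other group's mean in normalized log2. Such a bound carries no sampling error. The fit was tested on simulated data. Alternatives were the deposited normalized table, median scaling, other filters, 1 probe per gene, offset 50, array weights, a replicate block and leaving out each array. Values are given for Trim probes called in either fit, the 5 largest differences of each comparison among probes detected on both arrays of a group, the 5 highest means and the Trim genes of the lists. Members and lists were chosen with earlier results of these data known. The precision is limited by the number of arrays.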

Additional observations from a re-analysis of the deposited data

Results flagged for a closer look

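Probe 2 of Trim21 responded differently in the 2 genotypes by the test of the difference itself in the limma fit without the second knockout DMSO array. The knockout response minus the wild-type response was -2.88 ± 0.34 (adjusted p = 0.0299), beside a wild-type response of 2.32 ± 0.22. The probe was not detected on either knockout array with c-di-GMP, so the knockout response has only a bound (at least 1.14-fold lower) and the difference is one against background. With all 8 arrays the value was -2.86 ± 0.39 and did not pass (adjusted p = 0.143).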

How the results depend on the processing

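With 2 arrays a group, counts of Trim probes past the threshold moved with the array left out, each such fit leaving 1 array in a group. The wild-type response had 0 to 6 higher (0 without any wild-type or knockout c-di-GMP array, 6 and 4 without the first and second knockout DMSO array) and 0 to 2 lower. The knockout response had 0 to 8 higher and 0 to 11 lower, and the difference of responses 0 to 7 higher and 0 to 10 lower. The highest of these 4 counts arose when the first array of knockout DMSO was dropped and the weak one stood alone in its group. Knockout against wild type had 0 to 9 higher and 2 to 11 lower under DMSO, and 0 to 7 higher and 2 to 9 lower under c-di-GMP, where the counts lower were 2 and 3 without the first and second knockout c-di-GMP array. Probes expressed were 25 to 26 in knockout and 28 to 32 in wild-type cells, and 13 in knockout cells when all 4 arrays had to detect them. Median scaling gave 0 higher in the wild-type response, 1 lower under DMSO, and 0 higher and 2 lower under c-di-GMP. Of all 13026 tested probes it called 0, 98 and 170 in these comparisons, in either direction. Array weights gave 5 higher in the wild-type response, and 7 higher and 10 lower under c-di-GMP. Beside these, 559 and 5357 of all 13026 tested probes were called in either direction. The deposited normalized table gave 1 lower in the difference of responses, beside 17 of 13026 probes called in either direction. That table, no detection filter, detection on 4 arrays, 1 probe per gene and offset 50 each gave 1 higher under DMSO. In that order, 1663 of 13026, 1245 of 25697, 1418 of 11293, 1216 of 9665 and 1623 of 13026 probes were called in either direction. No filter gave 3 higher under c-di-GMP, beside 1553 of 25697 probes called in either direction. The cause of these shifts was not tested. With the replicate block the wild-type response had 0 higher, and the block moved no other count past 1.5 times. Same-numbered arrays deviated from their group means with correlations of -0.02 to 0.06, so the numbers were not taken as pairs. Under DMSO, probe 4 of Trim33 (-0.19 with all arrays) ranged from -1.24 without the first knockout array to 0.94 without the second, with 0.02 without the first wild-type array, and Trim37 (0.53) from -0.42 without the first knockout array to 1.58 without the second. Of 472 values for 30 probe differences, 374 kept direction and side of the threshold, 41 lost the threshold, 54 gained it and these 3 changed sign. A dim probe limits what can be read: a level under the lowest detected log2 signal, 7.53 on the weak array and 5.36 to 5.45 on the others, gives only a bound.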
